A study of Mus musculus with 12 samples.

Results

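The 6 genes described here encode cell-cell adhesion molecules of chondrocytes: Vcam1, Icam1, Alcam and Ncam1, which carry immunoglobulin domains, and the cadherins Cdh2 and Cdh11. They were chosen by symbol and matched to the Ensembl mouse gene IDs of the count tables. All 6 were found among the 57010 IDs, and all 6 passed the filter on low counts that left 14253 genes for testing. RNA came from primary mouse chondrocytes, the matrix-forming cells of cartilage, in 12 poly(A)-selected libraries that the labels all give as genotype Wild type. Of these, 4 are labelled Control, 4 WT, for cells transfected with a wild-type plasmid that is read here as SIRT5, and 4 SIRT5F101L mutant, for cells transfected with a plasmid for that mutant. The labels used here do not give what the Control cells received, the age of the animals or whether libraries of a group came from separate cultures, so that p-values measure only the spread between these libraries.

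Cadherins hold like cells together by binding their own kind on the neighbouring cell, and their tails are tied to actin through catenins. N-cadherin, the product of Cdh2, and NCAM1 are known from the condensation of mesenchyme that precedes cartilage, and cadherin-11 from osteoblasts and the fibroblasts of the joint lining. VCAM1 and ICAM1 are ligands of leukocyte integrins, and their genes are textbook targets of NF-kB in inflamed endothelium and synovium. ALCAM binds itself and CD6 of T cells, and is used as a surface marker of mesenchymal progenitors.

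The adhesion genes moved in opposite directions, and each moved the same way in both plasmid groups. Alcam rose about 6-fold in WT and nearly 7-fold in SIRT5F101L libraries, while Cdh2 and Ncam1 rose by smaller amounts. Cdh11, the most abundant of the 6 per length in Control, fell to near 50% of its Control level. Vcam1 and Icam1 fell. Vcam1 was the only one of the 6 called between the plasmid groups, being higher in SIRT5F101L than in WT, and that call was lost in 13 of 20 alternatives.

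Library totals ran from 15095357 to 24242139 counts, and the labelled tissue was checked against its markers. Control libraries held 9221 to 11580 CPM over 12 chondrocyte markers (CPM being counts scaled to a common library size with TMM, edgeR's trimmed-mean factors), and Col2a1 averaged 6712 CPM there. The same sum was 2849 to 2964 CPM in WT and 2320 to 2564 CPM in SIRT5F101L, and 10 of the 12 fell in each, where 28.1% and 30.7% of all tested genes fell; its part in the adhesion genes was not tested. Fibroblast and synovial markers were also high in Control, with a sum of 25250 to 30380 CPM over 8 genes, and Col1a1 (12690 CPM) and Col1a2 (14240 CPM) stood above Col2a1 there. SIRT5F101L replicate 1 stands apart: on the second principal component of log2 CPM, which holds 5.66% of the variance, it lies at 20.3 beside WT libraries at -1.07 to 20.1, and the other SIRT5F101L libraries lie at -23.5 to -17.0. Its trend of level with transcript length (slope, both on the log2 scale) set it apart as well, at -0.0588 beside 0.0809 to 0.103 in the other SIRT5F101L libraries, -0.0361 to 0.0521 in WT and -0.0661 to -0.0439 in Control. WT replicate 1 also lay away from its group, at -1.07 on that component beside 12.45 to 20.05 in the other WT libraries. The slope of WT replicate 1 was 0.0521, beside -0.0361 to 0.00235 in the other WT libraries. Sirt5 itself had 9 to 16 counts in Control, 1 to 9 in WT and 9 to 19 in SIRT5F101L libraries, so no rise of the mouse gene was detectable. An insert that differs from the mouse gene in sequence could go uncounted there, and expression from the plasmids was not tested. Both comparisons with Control use the same 4 Control libraries, so likeness between them is in part built in.

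Promoter windows from RefSeq were taken for 2 of the 6 genes, Icam1 and Alcam. A window of Cdh2 was not looked for, because the selection left out the chromosome that holds Cdh2. Icam1 and Alcam are shown because the selection gave them, and Icam1 happens to have the smallest and Alcam the largest change against Control. Each window covers 250 bases before and 50 after the RefSeq start in GRCm38.p6, which is not the GRCm39 build named for the counts: chr9:21015690-21015989, plus strand, for Icam1 and chr16:52453032-52453331, minus strand, for Alcam. Capitals mark matches to GGAAATTCC (a kB site), TTCNNNGAA (a STAT site), TATAAA or CCAAT, searched on both strands.
Icam1: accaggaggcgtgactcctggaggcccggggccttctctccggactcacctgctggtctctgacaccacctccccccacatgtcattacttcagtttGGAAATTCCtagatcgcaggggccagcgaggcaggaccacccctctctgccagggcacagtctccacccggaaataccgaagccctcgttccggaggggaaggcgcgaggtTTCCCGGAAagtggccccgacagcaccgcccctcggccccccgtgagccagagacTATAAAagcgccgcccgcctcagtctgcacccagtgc
Alcam: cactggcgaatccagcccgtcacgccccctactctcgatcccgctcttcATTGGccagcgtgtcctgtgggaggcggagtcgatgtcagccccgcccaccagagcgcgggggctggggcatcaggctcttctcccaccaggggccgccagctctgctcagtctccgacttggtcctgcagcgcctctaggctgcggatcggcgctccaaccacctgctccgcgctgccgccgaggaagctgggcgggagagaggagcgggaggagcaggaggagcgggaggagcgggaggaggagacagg

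The Icam1 window held GGAAATTCC at positions -153 to -145, TTCCCGGAA at -42 to -34 and TATAAA at 14 to 19, counted from the start as 1. It held 2 GC boxes (GGGCGG or its complement) as well. Over all 32851 windows of that length, GGAAATTCC occurred in 0.317%, TTCNNNGAA in 8.3% and TATAAA in 13.6%; the first motif was chosen from knowledge of this gene and not blind to its sequence. The Alcam window held none of these 3 motifs. It had a CCAAT match on the minus strand at -201 to -197, a motif found in 37.4% of windows, and 2 GC boxes, found in 35.7%. The NF-kB consensus, found in 8.46% of windows, and the AP-1 motif TGANTCA, found in 7.81%, matched neither gene. These matches describe the letters of 2 windows and show nothing of binding.

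**Figure D1:**
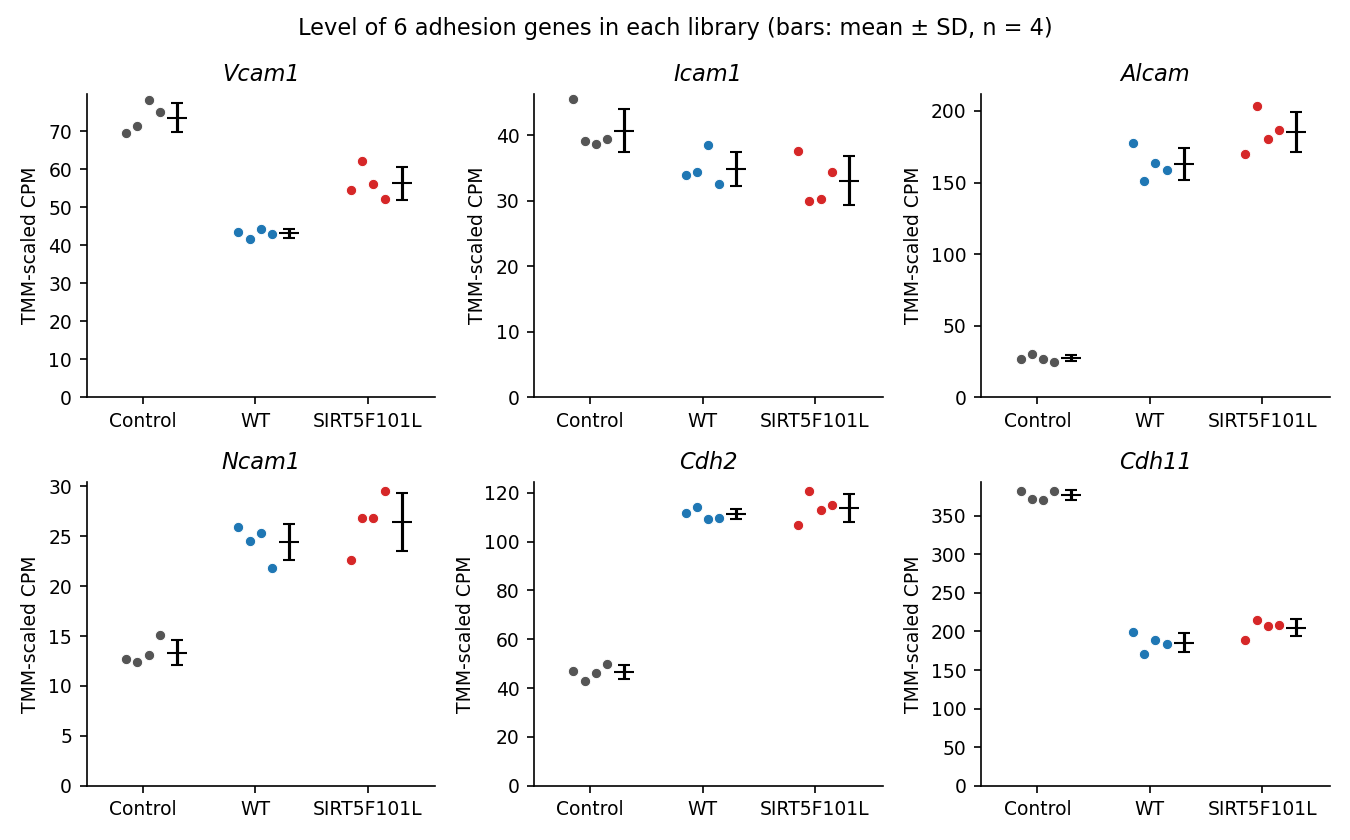
TMM-scaled CPM of each gene in each library, with the mean and SD of 4 libraries beside the points and every axis starting at 0. Alcam, Ncam1 and Cdh2 lie higher in both plasmid groups than in Control, and Vcam1, Icam1 and Cdh11 lie lower, with no overlap between Control and either plasmid group.

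The question put to the plasmid groups was how each differs from Control. By edgeR's quasi-likelihood test over all genes with Benjamini-Hochberg adjustment, all 6 adhesion genes passed an adjusted p of 0.05 in WT and all 6 in SIRT5F101L, 3 higher and 3 lower in each. Among all tested genes, 56.8% passed in WT (28.7% higher, 28.1% lower) and 60.7% in SIRT5F101L (30% higher, 30.7% lower), so a call by itself does not set the 6 apart. None of the 6 overlapped between Control and plasmid libraries, which held for 53.5% and 51.3% of all tested genes. The median absolute log2 fold change of the 6 was 0.95 in WT and 0.93 in SIRT5F101L, against 0.37 and 0.40 over all tested genes; the 6 were chosen with earlier results of these data known, so this describes them and sets them apart by no test.

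**Figure D2:**
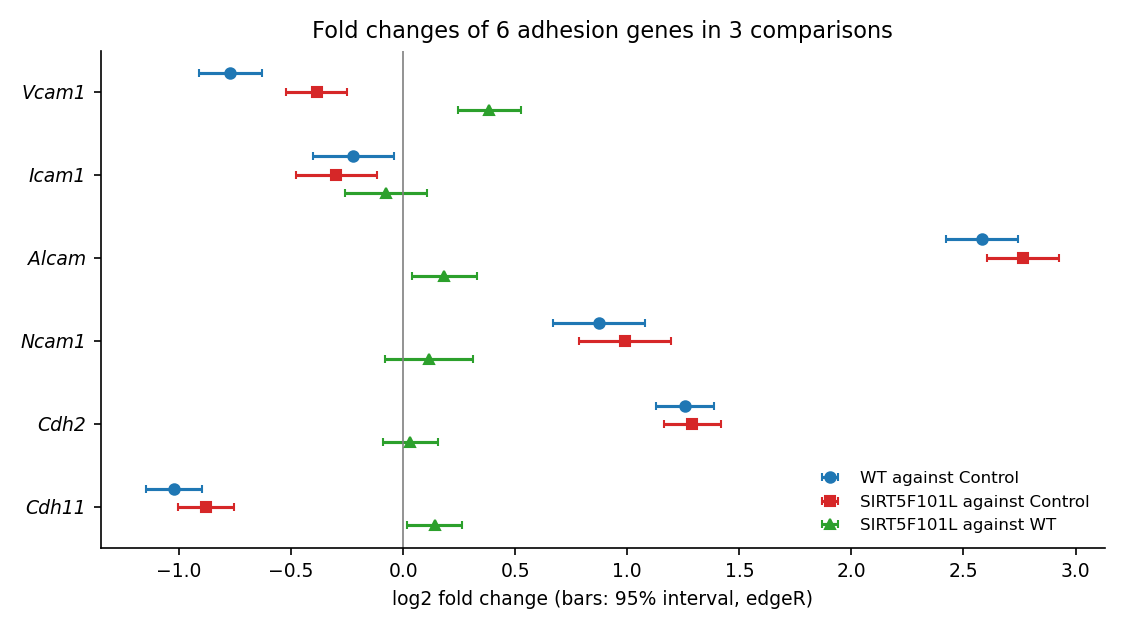
Log2 fold change of each gene in 3 comparisons, with 95% intervals from the edgeR fit of all 12 libraries. Alcam stands at 2.58 and 2.77 against Control, and of the direct comparison only Vcam1, at 0.38, was called.

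Vcam1 (ENSMUSG00000027962) encodes the ligand of integrin alpha 4 beta 1 on leukocytes. It stood at 69.5, 71.4, 78.1 and 74.9 CPM in Control replicates 1 to 4, at 43.4, 41.7, 44.3 and 42.9 CPM in WT, and at 54.4, 62.2, 56.1 and 52.2 CPM in SIRT5F101L. The 3 groups did not overlap, with Control highest, SIRT5F101L between and WT lowest. Its log2 fold change was -0.77 (95% interval -0.91 to -0.63, edgeR adjusted p 5.10e-09) in WT and -0.39 (-0.52 to -0.25, edgeR adjusted p 4.31e-05) in SIRT5F101L against Control. The WT libraries were close together, with a coefficient of variation of 2.52%, against 7.61% in SIRT5F101L. Gm43109, on the opposite strand, overlaps 0.688% of Vcam1 exon sequence and had at most 15 counts in any library.

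Icam1 (ENSMUSG00000037405) encodes the ligand of the beta 2 integrins. It stood at 45.6, 39.2, 38.6 and 39.4 CPM in Control, at 34.0, 34.4, 38.6 and 32.5 CPM in WT, and at 37.66, 29.99, 30.25 and 34.43 CPM in SIRT5F101L. Control replicate 1 was the highest of all 12, and the gap between the lowest Control and the highest WT library was small (38.63 and 38.55 CPM). Its log2 fold change was -0.22 in WT (95% interval -0.40 to -0.04, edgeR adjusted p 0.0340) and -0.30 in SIRT5F101L (-0.48 to -0.12, edgeR adjusted p 0.00568). The WT call was lost without Control replicate 1 (-0.17, edgeR adjusted p 0.134) and also without WT replicate 1, 2 or 4 (edgeR adjusted p 0.0746, 0.0707 and 0.0966); over all 20 alternatives the adjusted p from edgeR or DESeq2 ran from 0.0102 to 0.134. The call in SIRT5F101L held in every alternative run. The annotation places Gm47079 across 11.7% of Icam1 exon sequence on the opposite strand. Gm47079 had at most 2 counts in any library, but the strand setting of the counting is not given. The effect of the overlap on the Icam1 counts was therefore not tested.

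The fall of both leukocyte ligands stood beside rises of inflammatory genes, which were picked with results of these data known. Saa3 stood at 1.24 CPM in Control, 306 in WT and 321 in SIRT5F101L, and Ccl5 at 3.82, 477 and 436 CPM, and both were called in each plasmid group by edgeR. Macrophage and leukocyte markers fell too: 6 of 7 tested members fell in each plasmid group, against 28.1% and 30.7% of all tested genes in WT and SIRT5F101L, and 1, Cd14, rose. Their summed level was 177 to 208 CPM in Control, 130 to 150 CPM in WT and 139 to 179 CPM in SIRT5F101L; Itgam and Cd3e were listed at 0 in all 12 libraries, where a count of 0 allows up to 3 counts, 0.124 to 0.199 CPM. Of 5 tested endothelial markers none was called in either comparison, where 56.8% (WT) and 60.7% (SIRT5F101L) of all tested genes were called. The summed level of all 8 was 48.6 to 54.6 CPM in Control, 50.4 to 51.9 CPM in WT and 50.2 to 55.8 CPM in SIRT5F101L. Most of that sum was Erg, and Cdh5 and Pecam1 averaged at most 1.07 CPM in any group. The part of these cells in the levels of Vcam1 and Icam1 was not tested, and in bulk RNA fewer cells of a type and less RNA per cell cannot be told apart.

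Alcam (ENSMUSG00000022636) had the largest change of the 6. It stood at 27.0, 30.1, 26.8 and 24.8 CPM in Control, at 178, 151, 164 and 159 CPM in WT, and at 170, 203, 180 and 187 CPM in SIRT5F101L. Every plasmid library lay at least 5 times above the highest Control library. The fold was 5.99 (95% interval 5.36 to 6.69, edgeR adjusted p 2.25e-16) in WT and 6.80 (6.09 to 7.60, edgeR adjusted p 7.05e-17) in SIRT5F101L. At least a 2-fold rise with a call was found for 9.1% and 9.84% of all tested genes in these comparisons.

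Ncam1 (ENSMUSG00000039542), a homophilic neural and mesenchymal adhesion molecule, was the least abundant of the 6 per length in every group. It stood at 12.7, 12.4, 13.1 and 15.1 CPM in Control, at 25.9, 24.5, 25.3 and 21.8 CPM in WT, and at 22.6, 26.8, 26.8 and 29.6 CPM in SIRT5F101L. The lowest plasmid library lay above the highest Control library. The log2 fold change was 0.87 (95% interval 0.67 to 1.08, edgeR adjusted p 2.42e-07) in WT and 0.99 (0.78 to 1.19, edgeR adjusted p 3.48e-08) in SIRT5F101L. Gm11149 overlaps 4.81% of Ncam1 exon sequence on the opposite strand and was listed at 0 in all 12 libraries. Muscle markers, which were included because muscle also makes NCAM1, summed to 7.53 to 9.26 CPM in Control, 2.76 to 4.68 CPM in WT and 1.98 to 3.79 CPM in SIRT5F101L, with both tested members lower in each plasmid group, against 28.1% and 30.7% of all tested genes.

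Cdh2 (ENSMUSG00000024304) stood at 47.0, 43.1, 46.3 and 49.7 CPM in Control, at 112, 114, 109 and 110 CPM in WT, and at 107, 121, 113 and 115 CPM in SIRT5F101L. Its plasmid libraries lay close together and far above Control. The fold was 2.39 (95% interval 2.19 to 2.61, edgeR adjusted p 5.09e-13) in WT and 2.45 (2.24 to 2.67, edgeR adjusted p 3.22e-13) in SIRT5F101L.

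Cdh11 (ENSMUSG00000031673), the type II cadherin of osteoblasts and synovial fibroblasts, went the other way. It stood at 383, 372, 371 and 382 CPM in Control, at 199, 171, 189 and 184 CPM in WT, and at 189, 215, 207 and 208 CPM in SIRT5F101L. The Control libraries had the smallest spread of any gene of the 6 in any group, with a coefficient of variation of 1.71%. The log2 fold change was -1.02 (95% interval -1.15 to -0.90, edgeR adjusted p 9.74e-12) in WT and -0.88 (-1.004 to -0.756, edgeR adjusted p 9.26e-11) in SIRT5F101L. A call with at least a 2-fold fall was found for 7.56% of tested genes in WT and 7.67% in SIRT5F101L. Cdh11 lay near that line in both groups: the log2 fold change was -0.98 in WT without WT replicate 2, and -1.05 in SIRT5F101L with the length trend removed. Osteoblast markers were low: their sum was 62.6 to 71.9 CPM in Control, 40.8 to 52.5 CPM in WT and 38.9 to 61.2 CPM in SIRT5F101L, mostly Runx2, and 2 of 4 tested, Ibsp and Sp7, fell in each plasmid group, against 28.1% and 30.7% of all tested genes. The fibroblast and synovial markers summed to 9039 to 10670 CPM in WT and 9001 to 10200 CPM in SIRT5F101L; 5 of 8 fell, Col1a1 and Thy1 among them, and 3 rose, Pdpn, Prg4 and Pdgfra, in each plasmid group, where 28.7% and 30% of all tested genes rose. The part of such cells in the level of Cdh11 was not tested.

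Levels of different genes were compared per kb of the longest annotated transcript. In Control the order was Cdh11 at 66.7 ± 1.14 (SD, n = 4), Vcam1 at 18.0 ± 0.931, Icam1 at 16.1 ± 1.29, Cdh2 at 9.60 ± 0.566, Alcam at 4.501 ± 0.363 and Ncam1 at 2.03 ± 0.189 CPM per kb. Vcam1 and Icam1 overlapped in that order (16.99 to 19.1 and 15.24 to 17.97), and the other neighbours did not. In WT it was Cdh11 at 32.9 ± 2.12, Alcam at 27.0 ± 1.86, Cdh2 at 23.0 ± 0.449, Icam1 at 13.8 ± 1.02, Vcam1 at 10.5 ± 0.266 and Ncam1 at 3.72 ± 0.277 CPM per kb, with no overlap between neighbours. In SIRT5F101L it was Cdh11 at 36.3 ± 1.96, Alcam at 30.7 ± 2.30, Cdh2 at 23.5 ± 1.17, Vcam1 at 13.8 ± 1.05, Icam1 at 13.1 ± 1.45 and Ncam1 at 4.03 ± 0.438 CPM per kb. Cdh11 and Alcam overlapped there (33.46 to 38.05 and 28.18 to 33.67) through replicate 1, the lowest in Cdh11, and the other 3 libraries held Cdh11 at 36.68 to 38.05. Within each SIRT5F101L library Cdh11 was above Alcam on this length. Vcam1 and Icam1 overlapped as well. Per kb of merged exons instead, Alcam came first and Cdh11 second in both plasmid groups, so their order rests on the length used, as does that of Vcam1 and Icam1 in Control and SIRT5F101L.

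**Figure D3:**
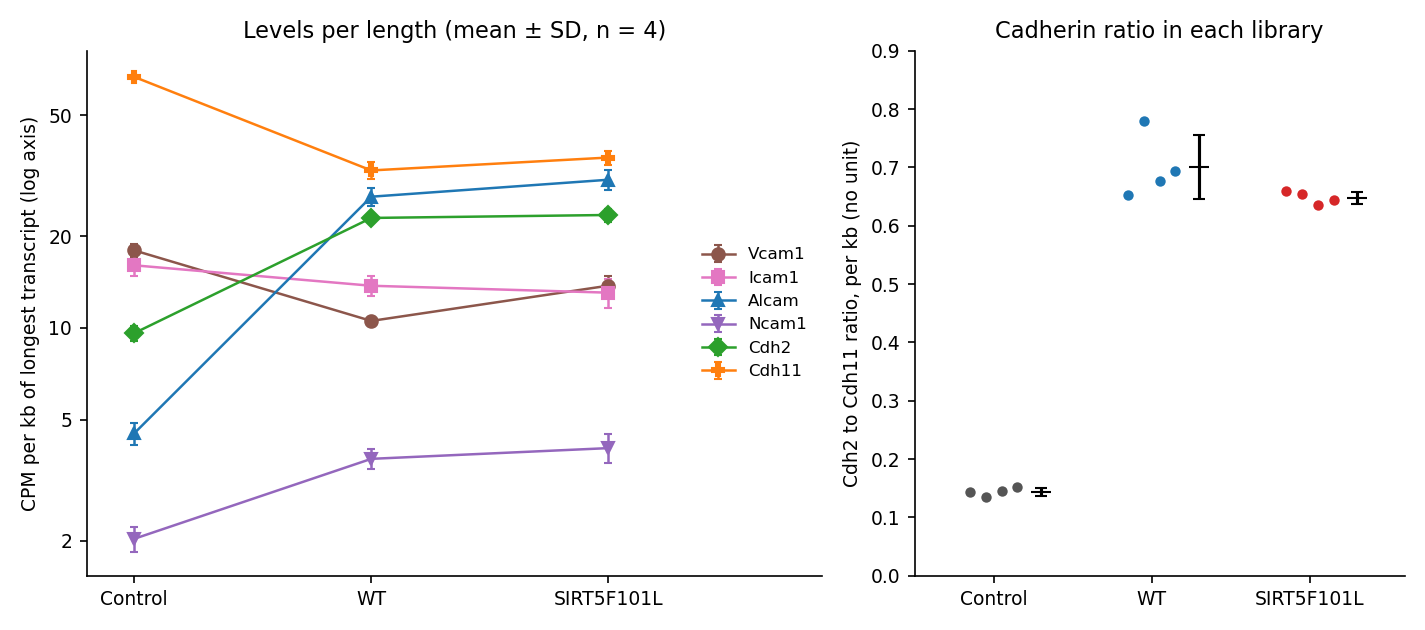
Left, CPM per kb of the longest transcript on a log axis, as mean and SD of 4 libraries per group, with lines that only join the points of a gene; Alcam goes from the fifth place in Control to the second in both plasmid groups. Right, the Cdh2 to Cdh11 ratio per kb in each library with the mean and SD of 4, at 0.135 to 0.152 in Control and 0.635 to 0.780 in the plasmid libraries.

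The share of each gene in the summed level of the 6 changed with these shifts. Cdh11 made up 57.1 ± 0.374% (SD, n = 4) of the sum per kb in Control, 29.7 ± 0.926% in WT and 29.9 ± 0.688% in SIRT5F101L. Alcam went from 3.86 ± 0.367% to 24.3 ± 0.801% and 25.3 ± 0.810%. The sum itself ran from 114.5 to 118.8 CPM per kb in Control, from 106.3 to 115.8 in WT and from 115.3 to 127.7 in SIRT5F101L. SIRT5F101L replicate 1 was the lowest of its group, and the other 3, at 119.6 to 127.7, lay above every Control and WT library. Per kb of merged exons the sums were 69.76 to 72.31 in Control, 69.93 to 76.88 in WT and 75.73 to 84.59 in SIRT5F101L, so that SIRT5F101L did not overlap with Control on that length.

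Ratios of counts within a library need no scaling between libraries. The Cdh2 to Cdh11 ratio per kb was 0.143, 0.135, 0.146 and 0.152 in Control, 0.653, 0.780, 0.677 and 0.693 in WT, and 0.659, 0.654, 0.635 and 0.645 in SIRT5F101L. Every plasmid library lay above every Control library, the plasmid groups overlapped, and Cdh11 stayed the higher of the pair in all 12. The Vcam1 to Icam1 ratio was 0.946 to 1.25 in Control, 0.713 to 0.817 in WT and 0.896 to 1.29 in SIRT5F101L. WT lay below both other groups on this ratio, and Control and SIRT5F101L overlapped. The Alcam to Vcam1 ratio went from 0.224 to 0.285 in Control to 2.45 to 2.78 in WT and 2.12 to 2.42 in SIRT5F101L, with no overlap among the 3 groups.

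The SIRT5F101L and WT libraries were compared directly to ask what the substitution changes. Of all tested genes, 0.0421% were called, 6 genes (0.0281% higher and 0.014% lower in SIRT5F101L, and 0.014% higher by at least 2-fold), and 4.02% did not overlap between the groups. Vcam1 alone of the 6 adhesion genes was called and did not overlap, with a log2 fold change of 0.38 (95% interval 0.24 to 0.52, edgeR adjusted p 0.0441), or 1.31-fold higher in SIRT5F101L. The size varied less than the call: over 20 alternatives the log2 fold change stayed between 0.33 and 0.42, and the adjusted p from edgeR or DESeq2 ran from 0.000159 to 0.270. It was under the threshold in 7 of the 20, among them DESeq2 (adjusted p 0.000170), and over it in 11 of the 12 fits that left out 1 library, Control libraries included. The fit without SIRT5F101L replicate 1 gave 0.40 and an edgeR adjusted p of 0.000159, with 2212 genes called over all. SIRT5F101L replicate 1 lay at 54.4 CPM, within its own group and above all WT libraries.

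The other 5 genes were not called between the plasmids. The log2 difference, SIRT5F101L minus WT, was 0.18 (95% interval 0.04 to 0.33) for Alcam, 0.14 (0.02 to 0.26) for Cdh11, 0.12 (-0.08 to 0.31) for Ncam1, 0.03 (-0.09 to 0.16) for Cdh2 and -0.08 (-0.26 to 0.11) for Icam1. Their edgeR adjusted p ran from 0.364 to 0.851, and each overlapped between the groups. With each library's length trend removed, the differences were 0.12 for Alcam, 0.08 for Cdh11, 0.04 for Ncam1, -0.0073 for Cdh2 and -0.05 for Icam1, none called by edgeR, and Vcam1 stood at 0.36 (edgeR adjusted p 0.0196). Without SIRT5F101L replicate 1, Alcam (0.22, edgeR adjusted p 0.0162) and Cdh11 (0.18, edgeR adjusted p 0.0313) were called as well. That library was the lowest of its group in Alcam, Ncam1, Cdh2 and Cdh11 and the highest in Icam1. Against Control it changed no call of the 6: without it the log2 fold changes in SIRT5F101L were -0.37 for Vcam1, -0.36 for Icam1, 2.81 for Alcam, 1.06 for Ncam1, 1.32 for Cdh2 and -0.84 for Cdh11.

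**Figure D4:**
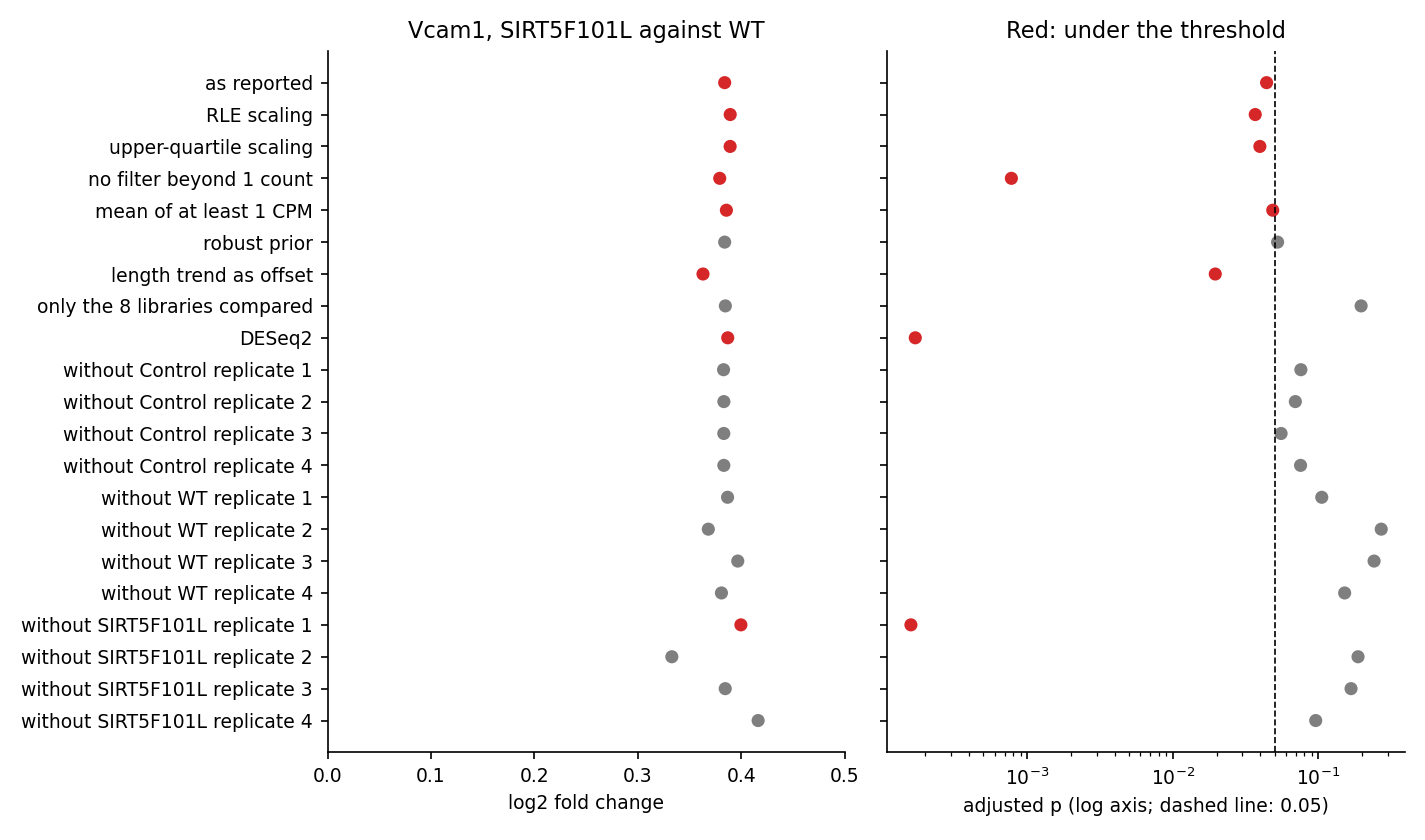
Log2 fold change of Vcam1, SIRT5F101L against WT, and its adjusted p on a log axis, as reported and in 20 alternatives; red marks values under the threshold of 0.05. The fold change stays at 0.33 to 0.42 while the adjusted p lies on either side of the line.

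Binding partners and relatives were followed as 7 lists, chosen with earlier results of these data known; their counts of calls stand beside 28.7% of all tested genes higher and 28.1% lower in WT, and 30% higher and 30.7% lower in SIRT5F101L. Of 7 tested integrin and T-cell partners, 3 rose and 2 fell in WT and 3 rose and 1 fell in SIRT5F101L. Itgb7, a beta subunit that pairs with alpha 4 to bind MADCAM1 and VCAM1, had log2 fold changes of 2.49 and 2.39 in WT and SIRT5F101L, from 8.58 CPM in Control to 48.2 and 45.0 CPM. Itga4, the alpha 4 subunit, rose by 1.83 and 1.72 from 0.907 CPM, and Itgb1 by 0.43 and 0.45 from 1373 CPM. Itgb2, the leukocyte beta 2 subunit, fell by 0.82 in WT and by 1.07 in SIRT5F101L, from 5.23 CPM. Itgal, its alpha partner, fell by 1.13 in WT and was not called in SIRT5F101L (-0.50), from 1.34 CPM. Cd6 had too few counts for testing, and Itgam was at 0.

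Of 10 tested other cadherins, 2 rose and 1 fell in WT and 3 rose and 1 fell in SIRT5F101L, where 56.8% and 60.7% of all tested genes were called in either direction. Cdh13, a cadherin held by a lipid anchor with no cytoplasmic tail, went from 58.9 CPM to 165 and 183 CPM (log2 fold changes of 1.49 and 1.63). Of the 21 listed, Cdh7 was at 0 and 10 others had too few counts for testing. Among 15 tested catenins and linkers to actin, 8 rose and 4 fell in each plasmid group. Ctnnb1, beta-catenin, which binds cadherin tails and carries Wnt signals, rose by 0.36 and 0.40. Ctnnd1, p120-catenin, which holds cadherins at the membrane, fell by 0.79 and by 0.93, and Ctnna1, alpha-catenin, was not called (0.01 and 0.04). Ezr, a linker of ICAM1 and VCAM1 tails to actin, rose by 1.02 and 0.85, and Pkp4 by 0.93 and 1.02. Ctnnd2 rose by 1.12 and 1.11 from 3.14 CPM.

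Other adhesion molecules with immunoglobulin domains formed the longest list. Of 25 tested, 11 rose and 4 fell in WT, and 13 rose and 6 fell in SIRT5F101L. The largest were Nrcam, a neuronal relative of L1, from 10.6 CPM to 132 and 131 CPM (3.64 and 3.63), and Cadm2, from 1.29 CPM to 13.4 and 16.3 CPM (3.38 and 3.66). Jam2, a junctional molecule, rose from 56.8 CPM to 221 and 237 CPM, and Nectin2 from 23.5 CPM to 70.1 and 66.5 CPM. Of 4 tested selectins and ligands, 3 rose and 1 fell in each group: Cd44, the hyaluronan receptor, went from 220.0 CPM to 779 and 801 CPM, and Selp from 1.93 CPM to 8.17 and 9.04 CPM. The median log2 fold change over all tested genes was -0.01 in WT and -0.02 in SIRT5F101L. Beside it, the medians were 0.41 and 0.38 for the immunoglobulin list, -0.01 and 0.05 for the integrin and T-cell partners, 0.0037 and 0.06 for the other cadherins, 0.30 and 0.28 for the catenins and linkers, and 1.96 and 2.05 for the selectins and ligands.

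Proteases that cut adhesion molecules from the membrane were the next list, with 9 tested; 5 rose and 2 fell in WT, and 6 rose and 3 fell in SIRT5F101L, with medians of 0.38 and 0.35. Adam10, which cuts N-cadherin, rose by 0.38 and 0.35. Adam17, which cuts VCAM1, was not called in WT (0.05) and rose by 0.17 in SIRT5F101L. Adam12 (1.197 and 1.295) and Adam19 (1.053 and 1.379) rose, and Adam8 fell by 0.87 and by 0.86. Adam15 was not called in WT (0.10) and fell by 0.54 in SIRT5F101L.

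The last list holds the enzymes that add polysialic acid to NCAM1 and partners in its signalling; of 8 tested, 5 rose and 1 fell in each group, with medians of 0.41 and 0.46. St8sia2, which makes polysialic acid on NCAM1, was the one that fell, from 277 to 371 counts in Control libraries to 0 to 7 in WT and 0 to 2 in SIRT5F101L (edgeR adjusted p 4.66e-13 and 1.52e-13). St8sia4, the related enzyme, was low in all groups, at 0.473, 0.301 and 0.369 CPM, and not called. Gfra1, a receptor for GDNF that can act through NCAM1, rose from 7.08 CPM to 58.4 and 55.1 CPM. Fgfr1 rose by 0.55 and 0.58, and Ptk2, focal adhesion kinase, by 0.54 in each. Between the plasmid groups none of the genes of the 7 lists was called, where 0.0421% of all tested genes were called, so this does not set the lists apart.

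**Figure D5:**
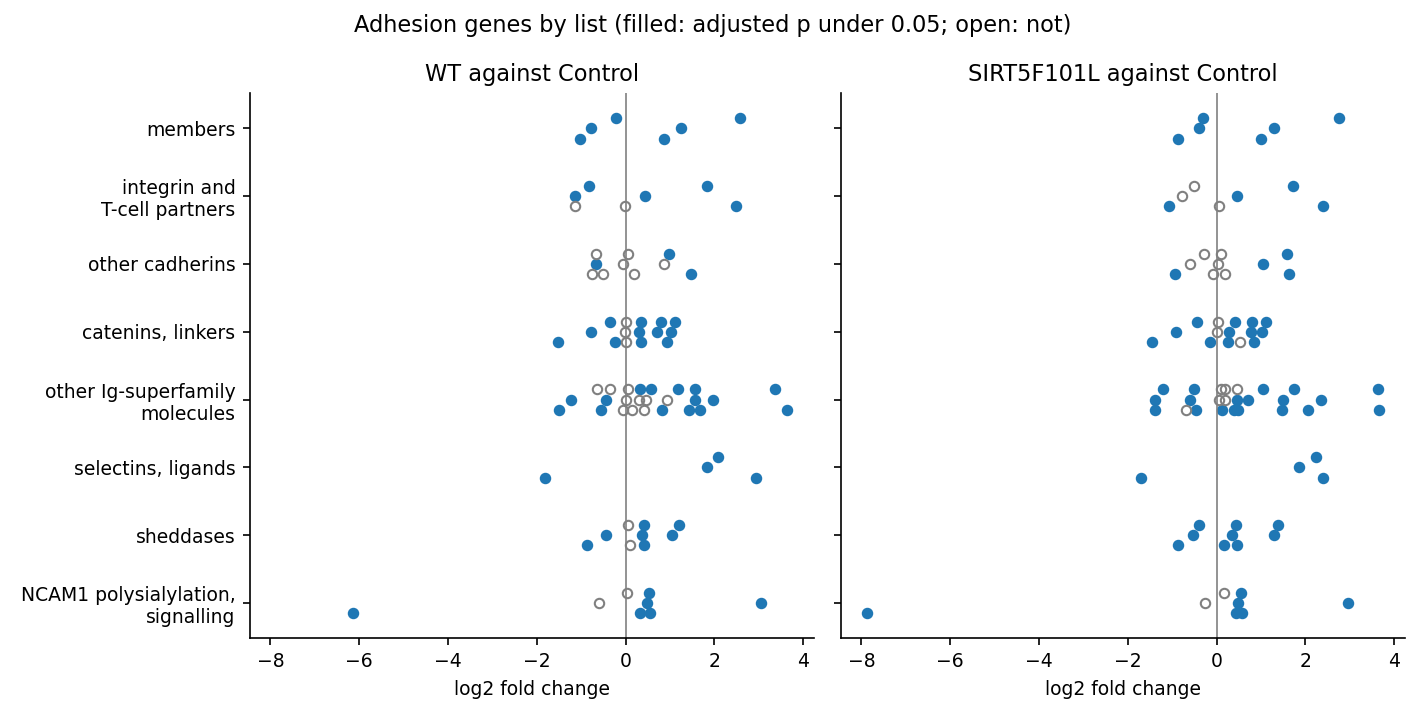
Log2 fold changes against Control of the tested genes of each list and, in the row named members, of the 6 genes, WT on the left and SIRT5F101L on the right, with filled points called by edgeR (adjusted p under 0.05) and open points not called. Most lists hold genes on both sides of 0; the point farthest left in each panel is St8sia2, whose plasmid libraries hold at most 7 counts, so its plotted size is uncertain.

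For each adhesion gene the 3 genes most like it were found, by the smallest root-mean-square difference of centred log2 CPM over the 12 libraries, among 9787 genes that averaged 5 CPM or more. Alcam was nearest to Mmp13, a collagenase (0.0986), Pla2g4a, a phospholipase that frees arachidonic acid (0.117), and Grem1, a BMP antagonist (0.124). Vcam1 was nearest to Rspo3 (0.102), Pbx3 (0.113) and Csgalnact1 (0.117); Rspo3 enhances Wnt signals. Cdh11 was nearest to Grb10 (0.0359), Lox, which crosslinks collagen (0.0631), and Edil3 (0.0716). Cdh2 was nearest to Sgms2 (0.0460), Sulf1 (0.0614) and Bhlhe40 (0.0671), and Ncam1 to Traf3 (0.0532), Atp2b1 (0.0679) and Itpr2 (0.0697). Icam1, which itself varied little around its mean (0.168), was nearest to Cpox (0.0488), Alg1 (0.0504) and Ckap4 (0.0683). These genes follow the same split between Control and plasmid libraries, and the measure says nothing of shared control.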

How the data were processed

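The deposited values are raw counts per Ensembl mouse gene ID, made by the authors. Per the submitters' processing notes, the tools were FastQC 0.11.9, HISAT2 2.2.1, HTSeq 2.0.2 and DESeq2 1.38.3 and the build GRCm39. The annotation release and the strand setting are not given in the sources used here, so reads of overlapping opposite-strand genes cannot be told apart. A low count of such a gene therefore does not show that its overlap was without effect. Symbols were matched for 52029 of 57010 IDs. Lengths and overlaps came from GENCODE M21, on the older build GRCm38. All 2414 IDs that it places on the X chromosome were at 0 in every library, so Msn and L1cam carried no information.

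Counts were tested with edgeR 4.0.16 in R 4.3.3: TMM scaling, filterByExpr with the groups given, then glmQLFit on the 12 libraries together and glmQLFTest, leaving 9 residual degrees of freedom. A gene was called where its 2-sided p, adjusted by Benjamini and Hochberg over 14253 genes, was under 0.05. The 95% intervals used each log2 fold change's size divided by the square root of F. Log2 CPM used a prior count of 2. The pipeline was tested on simulated data. Depth was 15095357 to 24242139 counts per library; a count of 3 is 0.124 to 0.199 CPM, which covers counting error only, as no molecular identifiers were used.

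The alternatives were RLE and upper-quartile scaling, a minimum of 1 count, a mean of 1 CPM, a robust prior, each library's loess trend on transcript length (span 0.5) as an offset, the 8 libraries compared, DESeq2 1.42.0, and each library left out in turn. The genes named from a list are the binding partners fixed for it and up to 4 called genes with the largest change and a mean of at least 5 CPM. Members and lists were chosen with earlier results of these data known. A leukocyte marker is not reported here.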

Additional observations from a re-analysis of the deposited data

Results flagged for a closer look

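Values of the 6 genes and of 4 ratios were screened within each group of 4, 30 groups in all, for a library far from its others; chance gives about 1 in 20, or 1.5, and 2 were found. Icam1 in Control replicate 1 stood at 45.6 CPM, against 38.6 to 39.4 CPM in the other Control libraries. The Alcam to Vcam1 ratio per kb in WT replicate 1 was 2.78, against 2.45 to 2.51 in the other WT libraries. The third result singled out is Vcam1, whose effect differed between the plasmids by a log2 fold change of 0.38 (edgeR adjusted p 0.0441) in the direct test.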

How the results depend on the processing

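Against Control, every one of the 6 genes kept its direction in all 20 alternatives, and every call held except that of Icam1 in WT. Icam1 in WT was no longer called in 4 fits that left out 1 library, with log2 fold changes of -0.27 to -0.17 over the 12 such fits. Vcam1, SIRT5F101L against WT, was not called with a robust prior (0.38, edgeR adjusted p 0.0525), in the 8 libraries alone (0.38, edgeR adjusted p 0.197) and in 11 of the 12 fits that left out 1 library (0.33 to 0.42, edgeR adjusted p up to 0.270). Leaving out libraries gave 0.14 to 0.23 for Alcam and 0.10 to 0.18 for Cdh11 in that comparison, both called once, without SIRT5F101L replicate 1, and 0.06 to 0.19 for Ncam1, -0.14 to -0.03 for Icam1 and 0.0030 to 0.06 for Cdh2, never called. With the length trend as offset, that comparison gave lower values of 0.12 for Alcam, 0.08 for Cdh11 and 0.04 for Ncam1, and Cdh2 changed sign, at -0.0073 (edgeR adjusted p 0.972). Genes called between the plasmid groups numbered 6 as reported, 354 with no filter beyond 1 count, 2 with a robust prior, 20 with the length trend, 2 in the 8 libraries alone, 38 by DESeq2, and 0 to 2212 with 1 library left out; at 0 calls, 944 to 2191 genes had an unadjusted p under 0.05. The causes of these shifts were not tested. Against Control the counts stayed within 1.5 times. No paired analysis was possible because the replicate numbers used here only name the libraries of a group in accession order, and no label pairs libraries across groups.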
